A study of Homo sapiens with 8 samples.

Results

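Histone cluster genes were followed across 4 groups of Caco-2 cells, a human colorectal cancer line that grows as an adherent epithelial monolayer. They were taken as the probes whose current gene symbol starts with H1-, H2AC, H2BC, H3C or H4C. The older HIST1H, HIST2H, HIST3H and HIST4H symbols are not used in the platform annotation of this array. A further condition was a detection p under 0.01, meaning a signal above the negative control beads of the array, on at least 2 of the 8 arrays. The array carries 81 such probes for 72 genes, and 29 probes for 26 genes met the detection rule, out of 18231 probes of all kinds that met it and 47322 on the array. Of the 29 probes, 20 were detected on all 8 arrays and 9 on fewer. Of the other histone probes, 46 were detected on 0 arrays and 6 on 1 array.

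Pairs of the core histones H2A, H2B, H3 and H4 make up the protein spool of the nucleosome, and linker histone H1 binds the DNA where it enters and leaves. Most genes for these proteins lie in clusters, one large and several small, and are transcribed mainly in S phase, when new DNA has to be packed. Their mRNAs typically end in a conserved stem-loop bound by SLBP rather than in a poly(A) tail, although some cluster genes also give polyadenylated transcripts, for example in differentiated cells. The kit named in the labels primes cDNA from poly(A) tails. The share of each histone mRNA that carries such a tail was not measured.

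ESRP1, an epithelial RNA-binding protein that controls alternative splicing, was the gene manipulated. ESRP1-silenced cells carried a pLKO.1 lentiviral short hairpin against ESRP1 (labelled sh4, 1 hairpin only) and Scr cells a scrambled hairpin in the same vector, both selected with puromycin. ESRP1-overexpressing cells carried the human ESRP1 coding sequence in the lentiviral vector pLX304 and Empty cells that vector without insert, both selected with blasticidin. Each group had 2 arrays. Nothing in the labels says that these came from separate cultures, so p-values measure only the spread between arrays, which may be technical, and an exact permutation test of 2 against 2 arrays cannot go below p = 0.333. One chip held the 4 arrays of the hairpin lines (Scr, ESRP1-silenced), and the second chip held the 4 of the pLX304 lines (Empty, ESRP1-overexpressing). Chip, vector, drug and cell line therefore cannot be told apart between the Scr and Empty controls, while each comparison with its own control lay within a chip.

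The median deposited signal per array was 167.1 to 227.3 and the number of detected probes 15153 to 17535, with 23 to 27 of the 29 histone probes detected on each array. The number of arrays limits the precision of all values. Levels are log2 intensities after background correction and quantile normalization of the 8 arrays. ESRP1 itself was at 9.75 and 9.96 in ESRP1-overexpressing cells against 8.26 and 7.91 in Empty. It was at 6.37 and 6.16, not detected, in ESRP1-silenced cells against 8.03 and 8.32 in Scr. Of 10 intestinal epithelial markers 7 were detected on all 8 arrays. CDX1 was detected on 0 arrays and KRT20 on 1. Of the leukocyte markers PTPRC and CD3E were detected on 0 arrays and CD68 on 8. Of the endothelial markers CDH5 and VWF were detected on 0 and PECAM1 on 4. Of the fibroblast markers COL3A1 and DCN were detected on 0, COL1A2 on 1 and COL1A1 on 5.

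The 150 bases before the start of 5 histone genes are shown because the results below turn on these genes or, for H2AC20 and H2BC21, because a divergent gene pair shares part of its upstream sequence. They are RefSeq sequences of build GRCh38.p14, written 5′ to 3′ in the direction of the gene. Capitals mark the TATA box, with the letters TATAAA. They also mark the CCAAT box. The third motif marked is the octamer bound by POU factors, with the letters ATTTGCAT. Both strands were searched, and the reverse complements of these are capitalised too. The capitalised runs do not overlap. H2AC6 lies at chr6:26124022-26124171 on the plus strand, H3C13 at chr1:149813694-149813843 on the minus strand and H2BC9 at chr6:26251464-26251613 on the plus strand. H2AC20 lies at chr1:149886768-149886917 on the plus strand and H2BC21 at chr1:149886683-149886832 on the minus strand, so that 65 bases belong to both windows.
H2AC6: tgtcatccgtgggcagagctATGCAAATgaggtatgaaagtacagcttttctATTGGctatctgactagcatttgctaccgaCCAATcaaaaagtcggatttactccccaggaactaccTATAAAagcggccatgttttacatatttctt
H3C13: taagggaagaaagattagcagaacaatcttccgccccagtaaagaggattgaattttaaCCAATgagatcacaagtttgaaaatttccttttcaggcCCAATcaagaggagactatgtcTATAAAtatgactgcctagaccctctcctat
H2BC9: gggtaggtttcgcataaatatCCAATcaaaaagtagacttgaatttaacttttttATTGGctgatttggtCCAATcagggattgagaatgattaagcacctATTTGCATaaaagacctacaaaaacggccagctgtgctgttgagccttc
H2AC20: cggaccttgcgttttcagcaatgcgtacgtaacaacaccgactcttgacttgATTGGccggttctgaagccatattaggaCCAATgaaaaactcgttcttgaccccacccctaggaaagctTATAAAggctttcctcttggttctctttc
H2BC21: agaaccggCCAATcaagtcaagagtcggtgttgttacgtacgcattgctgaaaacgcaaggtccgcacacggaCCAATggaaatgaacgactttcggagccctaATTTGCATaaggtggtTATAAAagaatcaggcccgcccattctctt

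Over the 25 genes with an entry in the promoter table (H4C3 is named only), the motifs were counted by histone class. CCAAT was in the window of 7 of 7 H2A, 6 of 6 H2B and 5 of 5 H3 genes, of 1 of 2 H1 genes and of 0 of 5 H4 genes, against 24.4% of 27305 promoters of the same length. The octamer was in 5 of 6 H2B windows, H2BC9 and H2BC21 among them, and in 2 of 7 H2A windows, those of H2AC6 and H2AC17, against 0.985% of all promoters. TATAAA was in 17 of 25 windows (1 of 2 H1, 6 of 7 H2A, 5 of 6 H2B, 3 of 5 H3 and 2 of 5 H4) against 7.05% of all promoters. It was in the windows of H2AC6 and H3C13 and absent from that of H2BC9. A match is a description of letters, not of a bound factor. The windows of H4C14 and H4C15 were identical over all 150 bases, those of H2AC18 and H2AC19 shared a run of 149 bases, and those of H4C11 and H4C12 were the same at 148 of 150 positions. Some histone genes of a class are near-identical copies, so a probe named for 1 of them may also bind transcripts of another. Probe sequences were not at hand to check this, and probes of such pairs are uncertain as to the gene.

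By class, 2 of 9 probes for H1, 8 of 19 for H2A, 8 of 23 for H2B, 5 of 15 for H3 and 6 of 15 for H4 met the detection rule. H4C8, detected on exactly 2 arrays (1 Scr and 1 ESRP1-silenced), was just inside it, with levels of 6.87 and 6.30 in Scr cells, 5.88 and 6.30 in Empty cells, 6.86 and 6.42 with the hairpin and 6.48 and 6.71 with the ESRP1 vector. Just outside were H2AC8, H2AC21, H2BC4, H2BC7, H2BC18 and a second H3C13 probe, each detected on 1 array. H2BC4, the neighbour of H2AC6, was at 6.37, 6.01, 6.23 and 6.07 on the chip of the Scr arrays and at 7.21, 6.63, 6.25 and 6.45 on the other.

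Levels of different probes do not rank their genes, since probes differ in how they bind. The H4C3 probe stood near the top of the signal range: its deposited signal was 41348.7 to 63130.3, while the highest of any probe on each array was 56267.2 to 74909.7. Its levels were 15.53 and 15.59 in Scr cells, 15.83 and 15.80 in Empty cells, 15.64 and 15.57 with the hairpin and 15.58 and 15.82 with the ESRP1 vector. A rise of H4C3, which encodes histone H4, had only the narrow range above these signals to show in. Whether the probe was saturated was not tested.

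**Figure D1:**
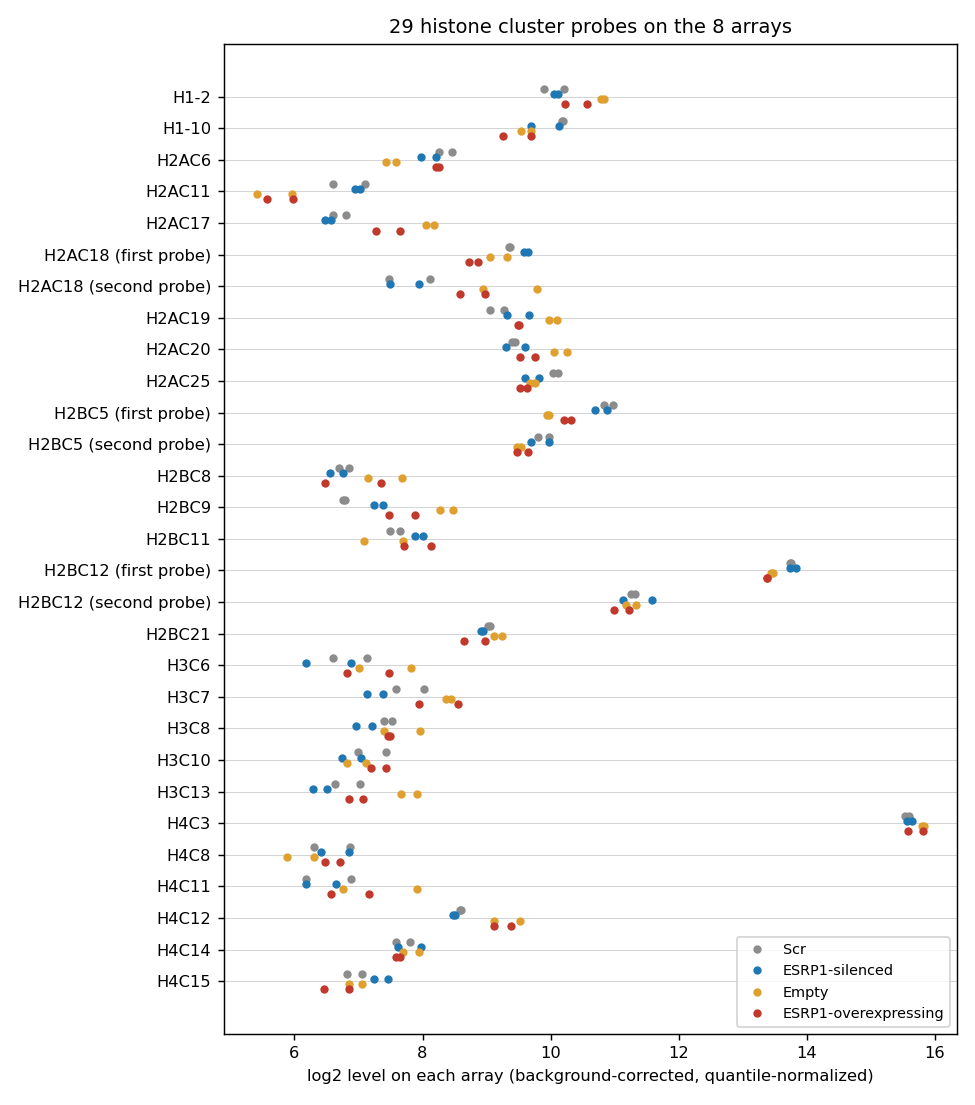
Log2 level (horizontal axis, background-corrected and quantile-normalized) of the 29 histone cluster probes, ordered by class, on the 8 arrays. Each point is 1 array and each colour 1 of the 4 groups. H2AC17, H2BC9 and the second H2AC18 probe show a wide gap between the Scr and Empty arrays.

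Comparing ESRP1-overexpressing with Empty cells asked whether forced ESRP1 moved the histone genes. H2AC6 rose 1.65-fold and H3C13 fell to 0.566 of its Empty level. These were the 2 of 29 histone probes called at an adjusted p under 0.05 from limma, next to 7.43% of all 18231 probes (4.06% called higher and 3.36% called lower). A share of 2 in 29 is near that background, so it is no result about the histone genes as a group. With the authors' normalized values 6 were called, 1 higher and 5 lower in place of 1 and 1, where 6.10% of all probes were called higher and 5.64% lower. Of the 29 fold changes 22 were below 0 (75.9%, against 50% over all probes), with a median log2 fold change of -0.21 (all probes 0.00043). That median is a description: the probes share their arrays, and probes that passed detection only through a brighter group had to differ. Between the 2 single arrays of a group, the median difference relative to all probes was -0.02 to 0.07. These arrays may be technical repeats, so that range does not measure the spread between cultures. Over the 20 probes detected on all 8 arrays 16 were below 0, with a median of -0.15. With a bound or no value for probes not detected in a group, the median was -0.21 over 27 probes. Changes in the share of cells that make histone mRNA and in the amount per cell cannot be told apart in these bulk samples.

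H2AC6 (older name HIST1H2AC), a core H2A gene of the large cluster on chromosome 6, was at 7.43 and 7.59 in Empty and at 8.21 and 8.26 in ESRP1-overexpressing cells. The hairpin lines were at 8.46 and 8.26 (Scr) and at 8.21 and 7.98 (ESRP1-silenced). The 2 Empty arrays thus lay below all 6 others, and the ESRP1-overexpressing arrays lay within the range of the other chip. The log2 fold change against Empty was 0.72 (standard error, SE, 0.14, 95% interval 0.40 to 1.05, limma adjusted p = 0.029). The call stayed when either ESRP1-silenced array was left out (limma adjusted p = 0.039) and was lost without any 1 of the other 6 arrays (limma adjusted p = 0.051 to 0.12).

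H3C13 (HIST2H3D), an H3 gene of the cluster on chromosome 1, was at 7.91 and 7.67 in Empty and at 6.86 and 7.07 in ESRP1-overexpressing cells, with 6.64 and 7.02 in Scr and 6.29 and 6.51 in ESRP1-silenced cells. Here the 2 Empty arrays lay above all 6 others. The log2 fold change against Empty was -0.82 (SE 0.18, 95% interval -1.24 to -0.40, limma adjusted p = 0.041). The probe was dim: it was detected on 1 of the 2 ESRP1-overexpressing arrays, and its deposited signals were 275.5 and 269.9 in Empty against 241.9 and 243.5 in ESRP1-overexpressing cells. Without background correction the log2 fold change was -0.42. The call was lost without any 1 of the 8 arrays (limma adjusted p = 0.051 to 0.17). A second H3C13 probe, detected on 1 array only, was at 6.90 and 6.59 in Empty and at 6.98 and 7.08 in ESRP1-overexpressing cells, where the groups did not overlap in the opposite order.

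**Figure D2:**
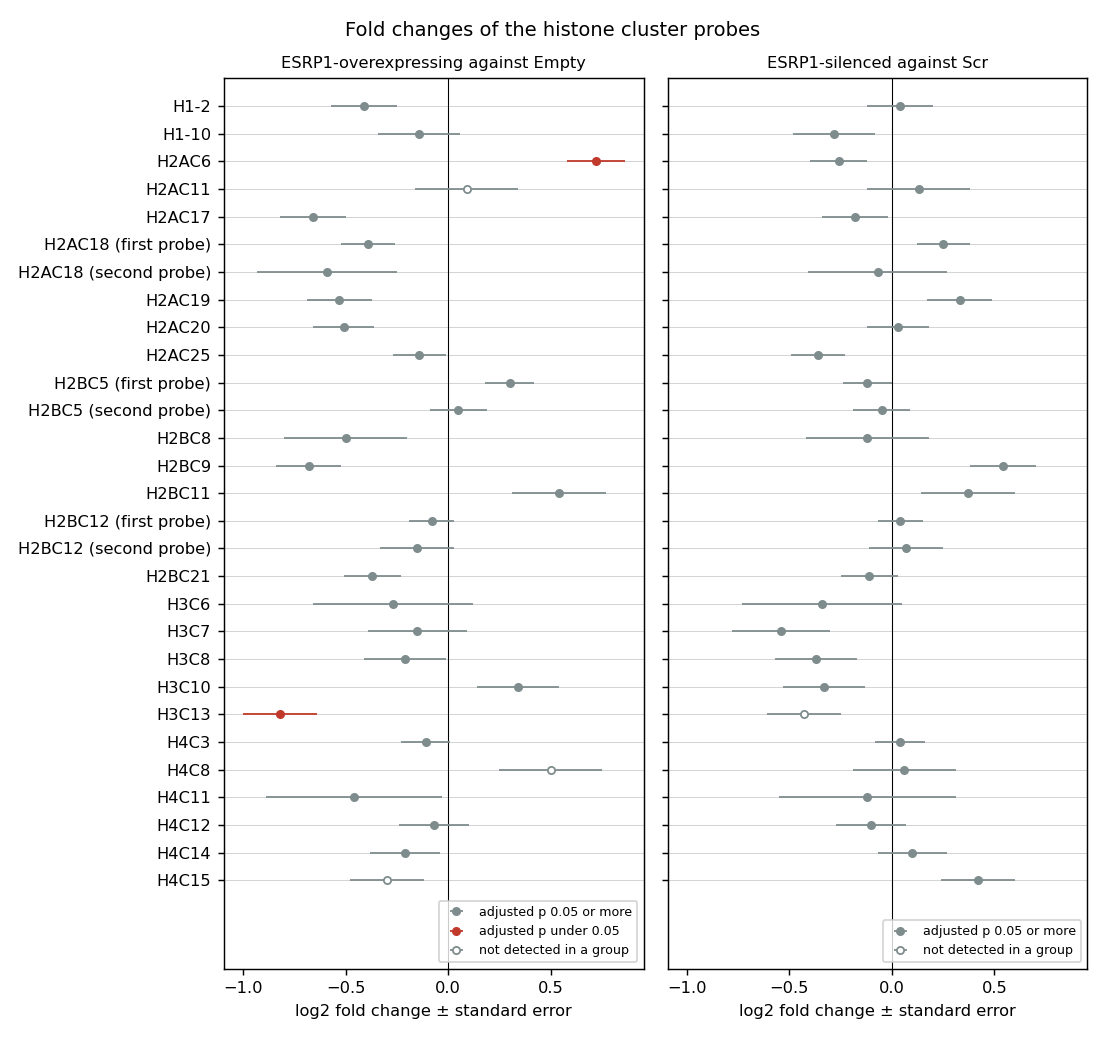
Log2 fold change (points) with its standard error (bars) of the 29 histone cluster probes for ESRP1-overexpressing against Empty cells (left) and ESRP1-silenced against Scr cells (right). Red marks an adjusted p under 0.05, which H2AC6 (0.72) and H3C13 (-0.82) have on the left and no probe has on the right. Open points were not detected on any array of 1 of the 2 groups or of both.

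Among the other H2A probes, all of which missed the threshold, the values with the smallest p lay below Empty. H2AC17 (HIST1H2AM) was at 8.18 and 8.06 in Empty and at 7.27 and 7.65 in ESRP1-overexpressing cells, with a log2 fold change of -0.66 (limma adjusted p = 0.056). H2AC19 was at 10.10 and 9.97 in Empty and at 9.49 and 9.51 in ESRP1-overexpressing cells, and H2AC20 at 10.06 and 10.25 against 9.52 and 9.75. In all 3 genes the groups did not overlap, and the log2 fold changes of H2AC19 and H2AC20 were -0.53 and -0.51 (limma adjusted p = 0.089 and 0.096). H2AC18, the near-identical copy of H2AC19, has 2 probes, called first and second in the order of their platform identifiers, which gave -0.39 and -0.59 on the log2 scale (limma adjusted p = 0.12 and 0.33). H2AC25 (HIST3H2A), the core H2A gene of a small cluster farther along chromosome 1, gave -0.14. H2AC11 was detected on 0 of these 4 arrays, so no fold is given.

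The H2B probes went both ways, with none called. H2BC9 (HIST1H2BH) was at 8.47 and 8.27 in Empty and at 7.89 and 7.48 in ESRP1-overexpressing cells, a log2 fold change of -0.68 (SE 0.16, limma adjusted p = 0.055). H2BC21 (HIST2H2BE), the divergent neighbour of H2AC20, was at 9.24 and 9.11 against 8.97 and 8.64, a log2 fold change of -0.37 (limma adjusted p = 0.16). The groups did not overlap for either gene. H2BC5 and H2BC12 each have 2 probes: the H2BC5 probes gave log2 fold changes of 0.30 and 0.05, and those of H2BC12 gave -0.08 and -0.15. H2BC11 gave 0.54 (95% interval -0.01 to 1.09) and H2BC8 gave -0.50 (95% interval -1.22 to 0.22).

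The linker histone gene H1-2 (HIST1H1C) was at 10.83 and 10.78 in Empty and at 10.23 and 10.56 in ESRP1-overexpressing cells, a log2 fold change of -0.41 (limma adjusted p = 0.17). H1-10, a linker histone gene on chromosome 3 and so outside the clusters, gave -0.14. Of the H3 probes beside H3C13, H3C6, H3C7 and H3C8 gave -0.27, -0.15 and -0.21, and H3C10 gave 0.34. In the H4 class H4C11 gave -0.46 (SE 0.43) and H4C14 gave -0.21. H4C8 was detected on 0 of these 4 arrays and H4C15 on 1, an Empty array, so no fold is given for either. H4C12 gave -0.07 (95% interval -0.46 to 0.33) and H4C3 gave -0.11 (95% interval -0.41 to 0.18).

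At an unadjusted p under 0.05, 2 histone probes were higher (background 13.3% of all probes) and 8 lower (background 12.6%) in ESRP1-overexpressing than in Empty cells. Arrays did not overlap, with ESRP1-overexpressing higher, for 5 probes (background 28.8% of all probes). They did not overlap, with ESRP1-overexpressing lower, for 11 probes (background 28.8%). By position, the fitted log2 difference was below 0 for all 9 probes of the 8 genes on chromosome 1 (median -0.39). It was below 0 for 12 of the 19 probes on chromosome 6 (median -0.11), against 50% over all probes tested. These sets include probes for which no fold is given, H4C15 on chromosome 1 and H2AC11 and H4C8 on chromosome 6. The chromosome 1 genes include the copies H2AC18 and H2AC19 and the copies H4C14 and H4C15, so these probes are not independent readings.

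**Figure D3:**
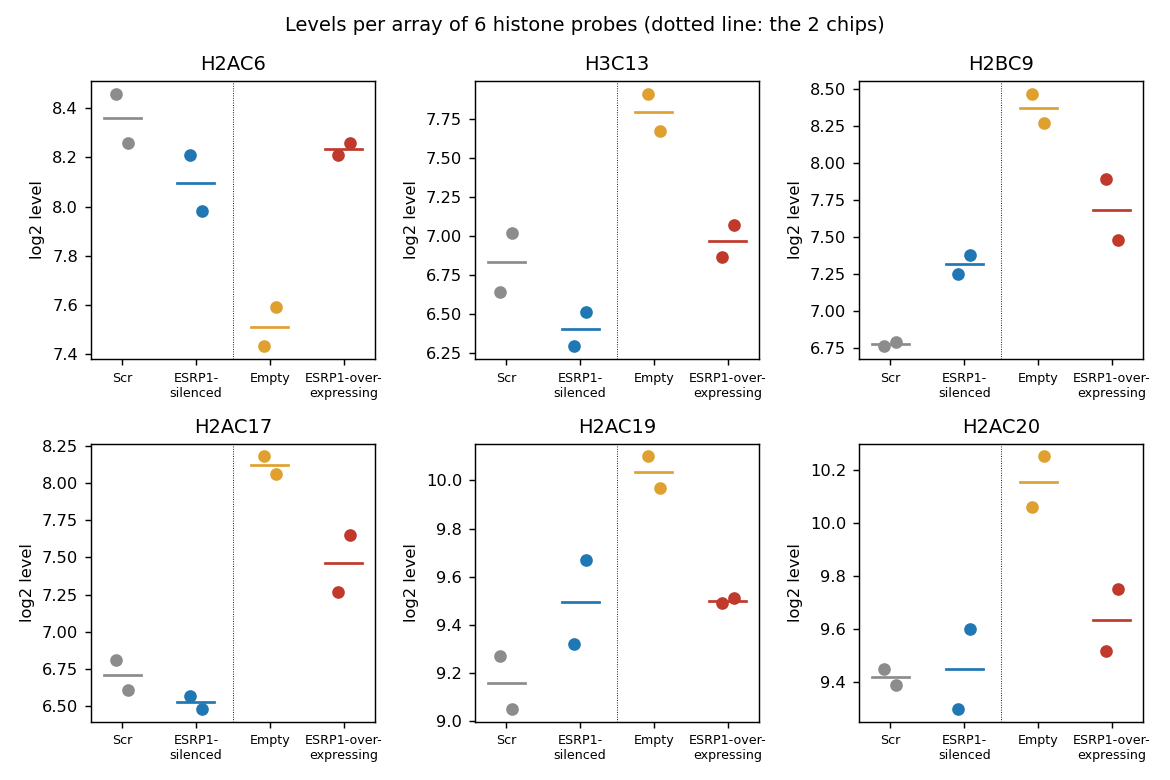
Log2 level of H2AC6, H3C13, H2BC9, H2AC17, H2AC19 and H2AC20 on each of the 8 arrays (points, 2 per group) with the group mean (bars). The dotted line separates the 2 chips, and each vertical axis has its own range. Empty arrays are lowest for H2AC6 and highest for the other 5 genes.

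Comparing ESRP1-silenced with Scr cells asked the same of ESRP1 loss. None of the 29 histone probes was called (0 of 29, lowest limma adjusted p = 0.26), where 0.132% of all probes were. At an unadjusted p under 0.05, 1 probe was higher (background 6.72%) and 2 were lower (background 6.81%). The methods' t-test gave 0 as well (background 0.686%). Of the fold changes 16 were below 0 and 13 above, with a median of -0.07 (all probes -0.00015). Arrays did not overlap, with ESRP1-silenced higher, for 5 probes (background 22.6%) and, with ESRP1-silenced lower, for 9 probes (background 22.8%).

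The smallest p was that of H2BC9, at 6.76 and 6.79 in Scr and at 7.25 and 7.38 in ESRP1-silenced cells, a log2 fold change of 0.54 (SE 0.16, limma adjusted p = 0.26). The groups did not overlap. H2AC25 was at 10.12 and 10.04 in Scr and at 9.82 and 9.60 in ESRP1-silenced cells, a log2 fold change of -0.36 (limma adjusted p = 0.30), again without overlap. H2AC6 gave -0.26, H2AC19 gave 0.33 and the first H2AC18 probe 0.25. In the H1 class H1-2 gave 0.04 and H1-10 gave -0.28. Both H2BC12 probes lay close to 0, at 0.04 and 0.07.

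All 5 H3 probes had a fitted log2 fold change below 0 in ESRP1-silenced cells, from -0.54 to -0.33, with none called. Over all probes 50% were below 0. The set includes H3C13, given only as a bound below, and H3C6 and H3C10, whose arrays overlapped between the groups. H3C7 (HIST1H3F) was at 8.03 and 7.58 in Scr and at 7.39 and 7.13 in ESRP1-silenced cells (-0.54, limma adjusted p = 0.39), and H3C8 (HIST1H3G) at 7.52 and 7.40 against 6.96 and 7.21 (-0.37, limma adjusted p = 0.45). The groups did not overlap for either. H2BC9, which lies between H3C7 and H3C8 on chromosome 6, had a fold change of the opposite sign. H3C13 was detected on both Scr arrays and on neither ESRP1-silenced array. With the ESRP1-silenced levels of H3C13 set no lower than the lowest signals detected, its Scr mean was 1.21-fold above them. That bound leaves out the spread between arrays. The fitted difference was not called (limma adjusted p = 0.37). H3C10 gave -0.33 and H3C6 gave -0.34 (95% intervals -0.81 to 0.16 and -1.25 to 0.58). The H4 probes were at 0.42 for H4C15 (limma adjusted p = 0.38), 0.10 for its copy H4C14, -0.12 for H4C11 and -0.10 for H4C12.

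The difference between the 2 comparisons was tested as a contrast of its own. It was called for 2 of 29 histone probes, against 3.20% of all probes. For H2AC6 the fold change in ESRP1-overexpressing cells was above that in ESRP1-silenced cells by 0.99 (SE 0.19, limma adjusted p = 0.049). For H2BC9 it was below, by -1.22 (SE 0.23, limma adjusted p = 0.045). For both genes the call was lost without any 1 of the 8 arrays (adjusted p = 0.080 to 0.14 for H2AC6 and 0.053 to 0.14 for H2BC9, from limma). In both genes the 2 controls were far apart: H2AC6 averaged 8.36 in Scr and 7.51 in Empty, and H2BC9 averaged 6.78 in Scr and 8.37 in Empty. ESRP1-silenced and ESRP1-overexpressing cells were closer to each other, at 8.10 and 8.23 for H2AC6 and at 7.31 and 7.69 for H2BC9.

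Between the chips, all 4 arrays of Empty and ESRP1-overexpressing cells lay above the 4 others for 5 histone probes (background 14.3%) and below them for 5 (background 16.9%). Those above were H1-2, H2AC17, H2BC9, H4C12 and the second H2AC18 probe. Those below were H2AC11, the first H2AC18 probe, the first H2BC12 probe and both H2BC5 probes. For H2AC17 the mean level was 6.62 on the Scr chip and 7.79 on the other, and for H2AC11, detected on 0 arrays of the second chip, it was 6.92 and 5.74. The 2 H2AC18 probes stood in opposite order: the first averaged 9.49 on the Scr chip and 8.99 on the other, the second 7.76 and 9.07. Both are annotated to the same gene, so the order of the chips depends on the probe. Beside the groups these arrays differ in chip, vector and drug, which cannot be told apart.

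**Figure D4:**
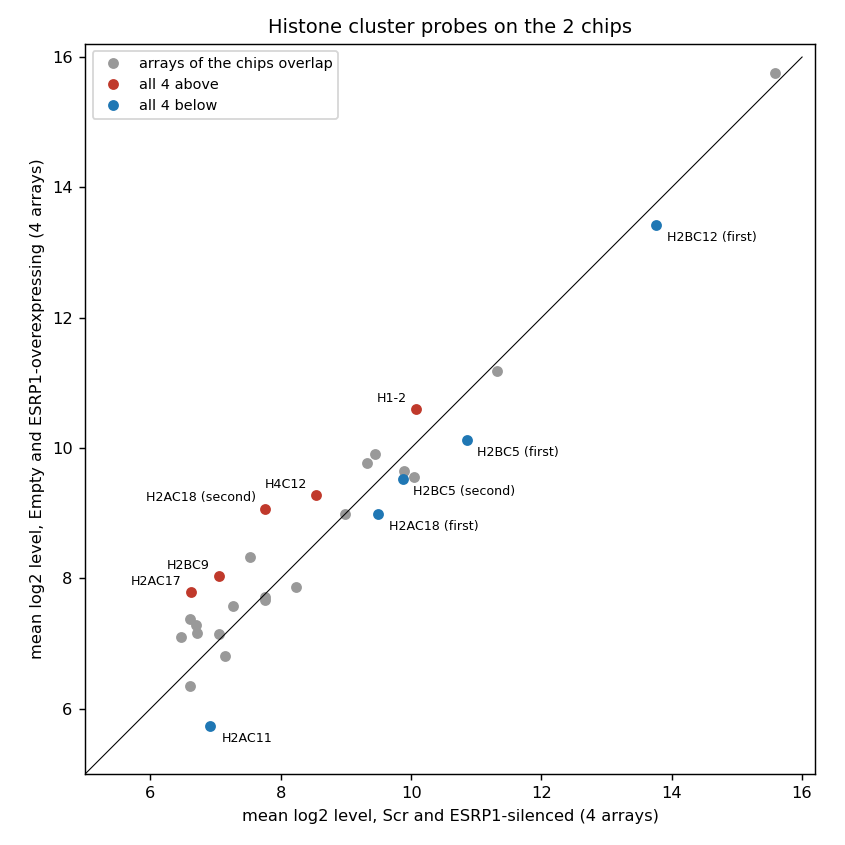
Mean log2 level of each histone cluster probe over the 4 arrays of Scr and ESRP1-silenced cells (horizontal axis) and over the 4 arrays of Empty and ESRP1-overexpressing cells (vertical axis), with the line of equality. Red points (5) had all 4 arrays of the second chip above the first and blue points (5) all 4 below. The first and the second H2AC18 probe lie on opposite sides of the line.

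Genes that serve the histones, and genes of DNA replication and mitosis, were counted in 5 lists. The lists are short, so their counts are no result about these genes as a group. The lists below count 1 probe per gene, beside backgrounds of 4.41% called higher and 3.66% called lower over 10805 genes in ESRP1-overexpressing against Empty cells, and no gene of any of these 5 lists was called in ESRP1-silenced against Scr cells. There the genes with an unadjusted p under 0.05 were, in the order below, 1, 1, 3, 4 and 3 a list (background 14.4% of all genes). In ESRP1-overexpressing against Empty cells they were 1, 3, 5, 11 and 4 (background 26.8%). Of 17 genes for histone mRNA transcription and 3′ end processing 14 were measured, 0 were called and the median was 0.05 (0.00035 over all genes). SLBP, the stem-loop binding protein, was at 11.84 and 11.67 in Empty and at 11.96 and 12.05 in ESRP1-overexpressing cells, a log2 fold change of 0.24 (SE 0.16, limma adjusted p = 0.40). A second SLBP probe, with a lower mean level, gave -0.04. NPAT, the cyclin E-CDK2 substrate that activates histone gene transcription, gave 0.08 and LSM10, a subunit of the U7 particle that cuts histone pre-mRNA, gave 0.22. In ESRP1-silenced against Scr cells SLBP, NPAT and LSM10 gave 0.06, -0.14 and 0.01, and the second SLBP probe gave -0.07. LSM11, the partner of LSM10, was not among the genes measured.

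Of 10 genes for variant histones outside the clusters, which replace core histones in chromatin, 10 were measured and 0 called in ESRP1-overexpressing cells (median -0.10). Of 17 histone chaperones measured, HIRA, which deposits the variant H3.3, was called lower. HIRA was at 6.64 and 6.78 in Empty and at 5.83 and 5.98 in ESRP1-overexpressing cells (limma adjusted p = 0.044), but it was detected on 0 of these 4 arrays, so no fold is given. Of 35 genes of DNA replication and S phase, RRM2, a subunit of ribonucleotide reductase, was called higher, from 10.79 and 10.59 in Empty to 11.22 and 11.44 (0.64, limma adjusted p = 0.034). The median of that list was -0.01. Of 17 mitosis genes 0 were called (median 0.03).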

How the data were processed

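RNA of adherent Caco-2 cells (4 groups, 2 arrays each) was labelled as cRNA and hybridised to Illumina BeadChips. The deposited intensities are mean bead signals without normalization or background subtraction (lowest value 73.8). Beside each intensity the authors deposited its detection p-value (88 cells written with a comma were read as 1). A table of deposited intensities normalized by the authors (lowest value 104.4, median 192.3 in every column) served as an alternative, with software and procedure not given in the sources used here. The number of unused array columns was 0.

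Log2 values came from the neqc function (limma 3.58.1, R 4.3.3), which took the background of each array from its detection p-values and quantile-normalized the 8 arrays, with an offset of 16. All 18231 probes that met the detection rule (p under 0.01, at least 2 arrays) entered 1 limma fit with 4 groups (4 residual and 2.8 prior degrees of freedom). Two-sided p-values were adjusted over these probes after Benjamini-Hochberg, with calls at an adjusted p under 0.05. Symbols came from the platform annotation (1 symbol for 30113 probes, several for 8, none for 17201), and older histone names, chromosomes and neighbours from RefSeq. Lists used the probe of a gene with the highest mean. A lower bound on a fold was used where a group had no detected array: the bright group's mean against, per array, the higher of the dim probe's level and the lowest detected level. This bound takes no account of the spread between arrays.

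The members and lists were chosen with earlier results of these data known. The genes named were all histone probes called, the 10 with the smallest p in each comparison, the 2 of each class with the highest mean level (a selection only), genes with 2 probes, list genes called, SLBP, NPAT, LSM10 and LSM11. Other values, such as those of H2BC4 and the second H3C13 probe, were chosen after being seen. Arrays of a group correlated at 0.984 to 0.991, groups on a chip at 0.971 to 0.988 and chips at 0.953 to 0.967. The fit was tested on simulated data with independent noise on each array. No effect of chip or culture was simulated, so that test cannot show how the fit deals with such effects. The alternatives changed the background correction (none), the normalization (the authors' values, or 1 chip at a time), the filter (none, or detection on all 8 arrays), the arrays fitted (4 only, or each array left out), the replicate number as a block, the prior (trended and robust) and the test (the methods' t-test, p under 0.01, change over 1.5-fold).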

Additional observations from a re-analysis of the deposited data

Results flagged for a closer look

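The response of H2AC6 differed between the comparisons by 0.99 on the log2 scale, 0.72 in ESRP1-overexpressing against Empty cells and -0.26 in ESRP1-silenced against Scr cells (adjusted p of the difference 0.049 from limma). That of H2BC9 differed by -1.22, with -0.68 and 0.54 (adjusted p of the difference 0.045 from limma). Both were singled out because the difference between the comparisons itself passed the test. H2BC9 passed in neither comparison alone. Groups of 2 arrays are too small for a test of single outlying arrays.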

How the results depend on the processing

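In ESRP1-overexpressing against Empty cells 2 histone probes were called. Calls over all probes moved too: 7.43% as reported, 12.1% without background correction, 11.7% with the authors' normalized values, 13% with detection on all 8 arrays and 14% with a trended and robust prior. The histone count was 6 in the first 2 of these alternatives (in both H2AC6 higher and H2AC17, H2AC19, H2AC20, H2BC9 and H3C13 lower). With detection on all 8 arrays it was 4 of the 20 histone probes left (H2AC6, H2AC19, H2AC20 and H2BC9). H3C13 and H2AC17 are not among these 20. With the trended and robust prior it was 3 (H2AC6, H2AC19 and H2AC20, with H3C13 lost at a limma adjusted p = 0.082). It was 1 with each chip normalized separately (H2AC6, with 6.36% of all probes called). It was 0 without a detection filter (of 81 probes, with 1.07% of all probes called), 0 with only the 4 arrays of the comparison (0.779%) and 0 with the methods' t-test (2.48%). When that test was adjusted by Benjamini-Hochberg, 0 probes of any kind were called, so that 0 says nothing about the histone probes. On leaving out each array, the lone array of a group is assumed to vary like the other groups. The log2 fold change was then 0.64 to 0.80 for H2AC6 and -0.94 to -0.70 for H3C13. Each of these fits called fewer probes of all kinds than the fit of all 8 arrays, so lost calls were not particular to the histone probes. The 2 calls on the difference of the comparisons became 3 (H2AC19 added) in the 4 alternatives with more calls over all probes (6.48% to 9% against 3.20%). They became 1 with each chip normalized separately (H2BC9, with 3.19% of all probes called) and 0 without a detection filter (0.351%). Same-numbered arrays did not deviate together (correlation 0.02 and 0.058), so no shared effect of the replicate number was seen. This cannot show whether they were cultured or processed together. With the replicate number as a block the counts were 1 (H2AC6; 5.82% of all probes) and 0 (1.93%). In ESRP1-silenced against Scr cells the histone count was 0 in every alternative with 2 arrays per group. Over all probes 0 were called too without a detection filter, with the replicate block, with only the 4 arrays and with the adjusted t-test. A histone count of 0 there says nothing about the histone genes. In the other alternatives 0.252% to 3.01% of all probes were called. With every probe of a gene counted, 1 mitosis probe (AURKA) was called in ESRP1-overexpressing cells rather than 0. The cause of these changes was not tested. The median histone fold change in ESRP1-overexpressing cells, -0.21, was -0.12 without background correction, -0.12 with the authors' values, -0.13 without a detection filter and -0.15 with detection on all 8 arrays. That in ESRP1-silenced cells, -0.07, was 0.02 without a detection filter, -0.01 with detection on all 8 arrays and -0.08 to -0.02 on leaving out each array. With 2 arrays per group and dim probes such as H3C13, whose signals lie close to background, small changes could not be detected.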
